A study of Macaca fascicularis with 10 samples.

Results

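LIN28B and IGF2BP3 are RNA-binding proteins called oncofetal, because they are made in early embryos and fetal tissues, are low or silent in most adult tissues and return in many tumours. All probe sets whose annotated symbol is LIN28B or IGF2BP3 were taken, and the signal of each was read on every array. The 2 genes are among 14132 genes named on the array, and they have 6 probe sets, 2 for LIN28B and 4 for IGF2BP3, of 52707 that are not controls. The probe sets were taken by symbol alone, while the genes were picked with earlier results of these data known. A probe set is a group of short probes on the array that together measure 1 transcript. All 6 passed the filter on dim probe sets, a signal above the array's own median on at least 2 arrays, which 34139 probe sets passed. The IGF2BP3 probe set MmugDNA.15520.1.S1_s_at was above the median on all 10 arrays, and the others passed through stem cell arrays alone. None of the 6 was annotated to a further gene.

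As background, LIN28B binds precursors of the let-7 microRNAs and blocks their maturation, and its paralogue LIN28A recruits the uridylating enzymes TUT4 and TUT7 to the same precursors. Mature let-7 represses growth and fetal genes such as HMGA2, MYCN and IGF2BP1, so LIN28 and let-7 oppose each other during differentiation. IGF2BP3 (also called IMP3) belongs with IGF2BP1 and IGF2BP2 to a family that binds messenger RNAs, among them IGF2 mRNA, affects their stability and translation, and is described as reading the m6A mark, a methylated adenosine in mRNA. Both genes are known for high levels in pluripotent stem cells.

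RNA of cynomolgus monkey (Macaca fascicularis) cells was read on 10 Rhesus Macaque arrays from Affymetrix, whose probes were designed for a related monkey. PG-haESCs are embryonic stem cells from parthenogenetic embryos, which have no sperm genome, are labelled haploid and gave 5 arrays. ICSI ESCs are embryonic stem cells from embryos made by intracytoplasmic sperm injection, labelled diploid, and gave 3 arrays. Cells labelled female somatic fibroblasts, diploid, gave 2 arrays. The PG-haESC arrays were of the line MPH1 at passage 8 (PG-haESC 1), passage 11 (PG-haESC 2), passage 7 (PG-haESC 3) and passage 9 (PG-haESC 4), and of the line MPH2 at passage 4 (PG-haESC 5). The ICSI ESC arrays were of MES1 at passage 12 (ICSI ESC 1), MES2 at passage 4 (ICSI ESC 2) and MES3 at passage 4 (ICSI ESC 3). The fibroblast arrays were of MF at passage 14 (fibroblast 1) and passage 15 (fibroblast 2). The labels name no engineered change in any group and no drug beyond the compounds Y27635 and Thiazovivin in the stem cell medium. The groups differ in labelled ploidy and parental origin as given above. The stated culture, on feeder cells in medium with Y27635 and Thiazovivin, is that of the stem cells. Several arrays came from the same line and no label names separate animals or cultures for them, so p-values here cover only how far these arrays spread, which may be technical. Precision is limited by how few arrays there are.

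Whole-series facts bear on the reading of both genes. Signals are MAS5 intensities, scaled by array, and array medians ran from 77.9 to 132.7 on PG-haESC arrays, from 76.8 to 117.3 on ICSI ESC arrays and from 110 to 121 on fibroblast arrays. PG-haESC 2 and ICSI ESC 1 had the highest passages among stem cell arrays and the highest spike-in control signals, a mean log2 signal of 13.43 and 13.15. On the other stem cell arrays that mean was between 11.91 and 12.52. Pluripotency markers fitted the stem cell labels, with a mean log2 signal over 9 measured markers of 11.59 to 12.29 on PG-haESC arrays, 11.42 to 11.90 on ICSI ESC arrays and 6.05 to 6.78 on fibroblast arrays. Of these 9, 8 were called higher than in fibroblasts in each stem cell group, and the remaining marker was not above 0. Over all genes tested 23.0% were called higher in PG-haESCs and 22.5% in ICSI ESCs. On both fibroblast arrays the signals of 13 measured fibroblast and feeder markers were high (mean log2 12.97 and 13.01). Those of 11 measured epidermal markers were high there too, with a mean log2 of 14.50 and 14.53. On PG-haESC arrays the epidermal mean was 4.73 to 5.96 and on ICSI ESC arrays 5.04 to 5.68. KRT1, a keratin of differentiated epidermis, had signals of 53895 and 53774 on the fibroblast arrays. The stem cells were thus compared with samples labelled fibroblast on which epidermal genes were bright, and the part of this in the results was not tested. None of these markers was listed at 0 on any array. In bulk arrays, fewer cells of a type and less RNA per cell cannot be told apart.

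LIN28B was among the strongly hybridising transcripts of every stem cell array and was dimmer than the array median on both fibroblast arrays. Its brighter probe set, MmugDNA.33796.1.S1_s_at, had signals of 7948, 6542, 8616, 9035 and 9325 on PG-haESC arrays 1 to 5, of 5197, 8325 and 9005 on ICSI ESC arrays 1 to 3, and of 5.27 and 9.41 on fibroblast arrays 1 and 2. The stem cell groups overlapped, and neither overlapped with the fibroblast arrays. The highest stem cell value was on MPH2 and the lowest on MES1. Against the array medians, the signals were 49.3 to 119.5 times the median on PG-haESC arrays and 44.3 to 108.4 times on ICSI ESC arrays, and 0.0434 and 0.0854 times the median on fibroblast arrays.

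The geometric mean of LIN28B at this probe set was 8230 in PG-haESCs (SD 0.20 log2, n = 5) and 7.04 in fibroblasts (SD 0.59 log2, n = 2). The log2 difference was 10.22 ± 0.33 (SE, limma adjusted p = 3.889e-09). With the fibroblast signals raised to their array medians, which removes the part of the ratio that rests on signals too dim to rank, PG-haESCs were at least 71.1-fold higher. ICSI ESCs, with a geometric mean of 7304 (SD 0.43 log2, n = 3), were at least 63.1-fold higher than fibroblasts, with a log2 difference of 10.02 ± 0.33 (adjusted p = 6.855e-09).

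Between the stem cell groups the brighter LIN28B probe set did not differ beyond its spread. The log2 difference of PG-haESCs minus ICSI ESCs was 0.20 ± 0.27 (SE, adjusted p = 0.98), with a 95% interval from -0.39 to 0.79, that is from 0.762 to 1.73 times. Without ICSI ESC 1 the difference was -0.060 (adjusted p = 0.97), so its sign rested on that array. Without ICSI ESC 3 it was 0.35.

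The dimmer LIN28B probe set, MmunewRS.241.1.S1_at, had signals nearer to the array medians. Its signals were 171, 233, 245, 211 and 189 on PG-haESC arrays 1 to 5, against 107, 114 and 127 on ICSI ESC arrays 1 to 3 and 64.0 and 34.1 on fibroblast arrays. The 3 groups did not overlap. PG-haESC values were 1.75 to 3.15 times the array median, ICSI ESC values 0.914 to 1.49 times and fibroblast values 0.310 and 0.527 times.

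At this dim probe set the PG-haESC minus ICSI ESC difference was 0.83 ± 0.40 on the log2 scale (SE, adjusted p = 0.72, 95% interval -0.05 to 1.70). PG-haESCs were higher than fibroblasts by 2.14 ± 0.49 (adjusted p = 0.0050), at least 1.80-fold, and this call was lost with all dim signals set to the array median (0.83, adjusted p = 0.078). ICSI ESCs minus fibroblasts gave 1.31 ± 0.49 (adjusted p = 0.060), which was 1.76 without fibroblast 1 (adjusted p = 0.030), 0.85 without fibroblast 2 (adjusted p = 0.26) and 1.36 without ICSI ESC 1 (adjusted p = 0.046). Both LIN28B probe sets measure the same gene and are no replicates of each other.

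IGF2BP3 was bright on every stem cell array at all 4 of its probe sets and low on both fibroblast arrays. The brightest, MmugDNA.15520.1.S1_s_at, had signals of 16482, 14115, 15490, 15073 and 14273 on PG-haESC arrays 1 to 5, against 9880, 12785 and 15250 on ICSI ESC arrays 1 to 3 and 135 and 205 on the fibroblast arrays. PG-haESC values lay close together, ICSI ESC values overlapped with them at the upper end, and fibroblast values lay far below both. It was the one probe set of the 6 that stayed above the array median on the fibroblast arrays, by 1.11 and 1.86 times.

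In PG-haESCs the geometric mean at this probe set was 15062 (SD 0.091 log2, n = 5), against 166 in fibroblasts (SD 0.43 log2, n = 2), an 89.9-fold difference (log2 6.49 ± 0.24, adjusted p = 1.062e-08). ICSI ESCs had a geometric mean of 12443 (SD 0.31 log2, n = 3) and were 74.8-fold higher than fibroblasts (log2 6.23 ± 0.25, adjusted p = 1.804e-08). PG-haESCs minus ICSI ESCs gave 0.26 ± 0.20 (adjusted p = 0.92, 95% interval -0.17 to 0.70, that is 0.887 to 1.63 times). Without ICSI ESC 1 that difference was 0.10.

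At a further IGF2BP3 probe set, MmugDNA.31012.1.S1_at, the signals were 16521, 12200, 16772, 16858 and 12808 on PG-haESC arrays 1 to 5, 9381, 11847 and 11526 on ICSI ESC arrays 1 to 3, and 81.1 and 107 on the fibroblast arrays. Every PG-haESC value exceeded every ICSI ESC value, the nearest being 12200 on PG-haESC 2 and 11847 on ICSI ESC 2. The log2 difference was 0.42 ± 0.19 (SE, unadjusted p = 0.050, adjusted p = 0.68). Against fibroblasts, PG-haESCs were at least 129-fold and ICSI ESCs at least 93.9-fold higher (adjusted p = 3.889e-09 and 8.612e-09).

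The probe set MmugDNA.15520.1.S1_at carried signals of 6072, 6483, 10523, 8800 and 6696 on PG-haESC arrays 1 to 5, 4646, 6241 and 4619 on ICSI ESC arrays 1 to 3, and 52.3 and 64.9 on fibroblast arrays. PG-haESC 3 and PG-haESC 4, which carry the code M2, were the highest, and ICSI ESC 2 lay among the PG-haESC values. PG-haESCs minus ICSI ESCs gave 0.53 ± 0.24 (unadjusted p = 0.047, adjusted p = 0.66). PG-haESCs were at least 65.2-fold and ICSI ESCs at least 44.2-fold higher than fibroblasts (adjusted p = 2.316e-08 and 4.878e-08).

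MmugDNA.36832.1.S1_at was the dimmest IGF2BP3 probe set, with 1409, 1281, 1530, 1482 and 1300 on PG-haESC arrays 1 to 5, 1274, 1056 and 1006 on ICSI ESC arrays 1 to 3, and 24.4 and 34.6 on fibroblast arrays. The stem cell groups were separated only narrowly, by 1281 on PG-haESC 2 and 1274 on ICSI ESC 1. Their log2 difference was 0.32 ± 0.22 (adjusted p = 0.89), and PG-haESCs and ICSI ESCs were at least 12.1-fold and at least 9.56-fold higher than fibroblasts (adjusted p = 4.794e-08 and 9.282e-08).

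**Figure D1:**
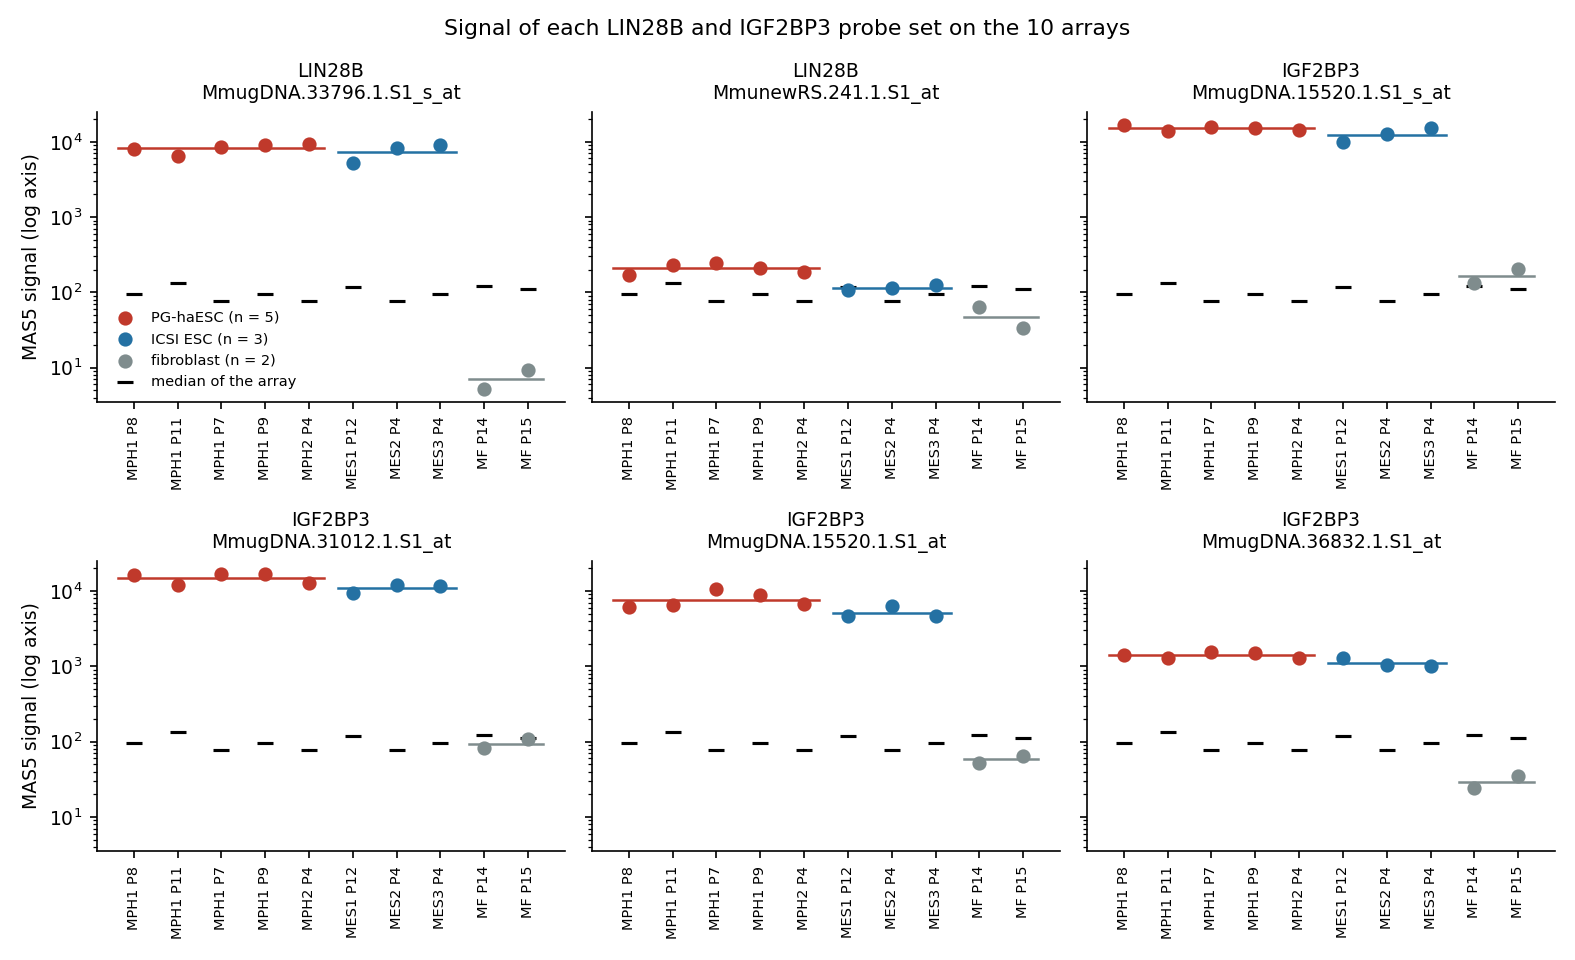
MAS5 signal (log axis) of the 2 LIN28B and 4 IGF2BP3 probe sets on each array, labelled by line and passage, for PG-haESC (n = 5), ICSI ESC (n = 3) and fibroblast (n = 2). Points are arrays, horizontal lines are geometric means of a group and black dashes are the array medians. The stem cell points of 5 panels lie far above the dashes, those of MmunewRS.241.1.S1_at lie near them, and the fibroblast points lie below the dashes in every panel but that of MmugDNA.15520.1.S1_s_at.

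Over both genes, 6 of 6 probe sets were called higher in PG-haESCs than in fibroblasts at an adjusted p under 0.05, where 17.0% of all probe sets tested were. In ICSI ESCs 5 of 6 were called higher than in fibroblasts, against 16.5% of all tested. The genes were picked with earlier results known, and all but MmugDNA.15520.1.S1_s_at passed the filter through stem cell arrays alone. The counts against fibroblasts were thus favoured in advance and are a description, not a test. Between PG-haESCs and ICSI ESCs 0 of 6 were called, where 0.451% of all tested were, and only MmugDNA.15520.1.S1_at had an unadjusted p under 0.05 in limma. All 6 log2 differences between the stem cell groups were above 0, between 0.20 and 0.83. PG-haESC and ICSI ESC values did not overlap at 3 of 6 probe sets, with PG-haESCs higher, which was the case at 4.42% of all probe sets tested. Probe sets of 1 gene read the same transcripts on the same arrays, so these counts are not over independent measurements. Both fibroblast comparisons share the 2 fibroblast arrays.

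**Figure D2:**
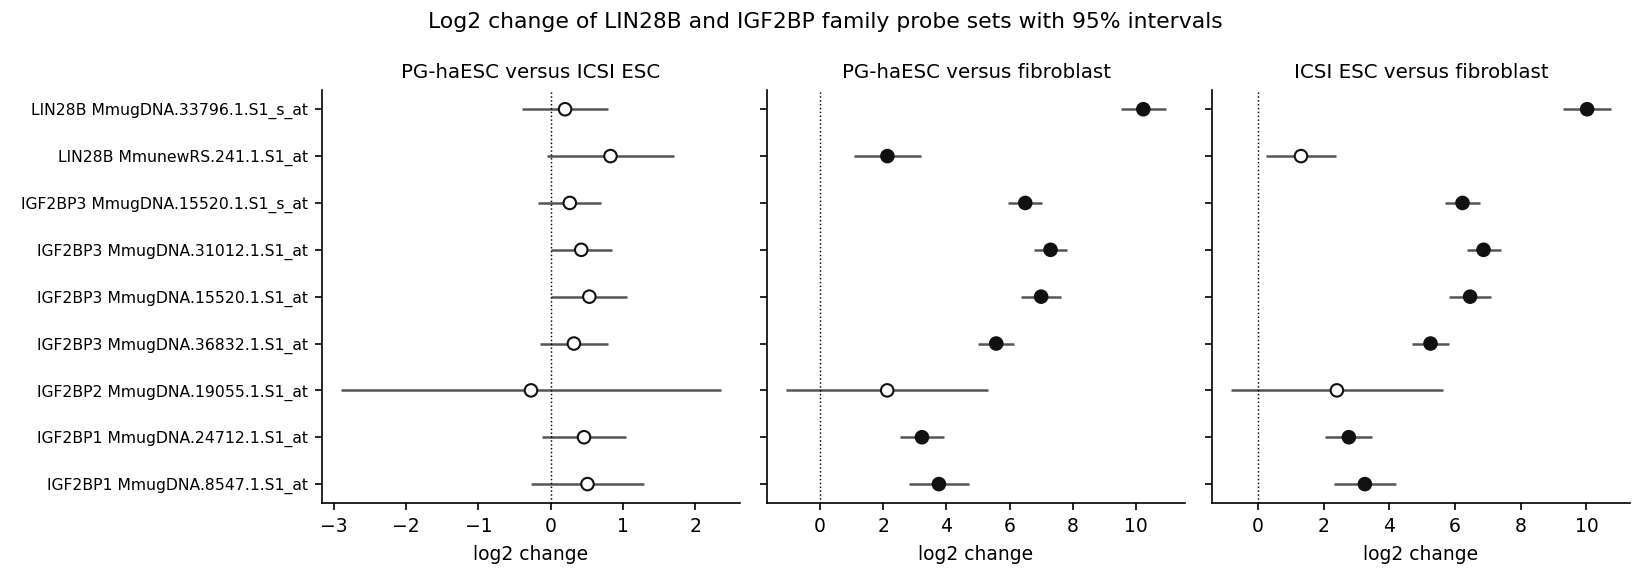
Log2 change (x axis) with its 95% interval for each LIN28B, IGF2BP3, IGF2BP2 and IGF2BP1 probe set in the 3 comparisons. Filled points have an adjusted p under 0.05, which holds for no probe set between PG-haESCs and ICSI ESCs. LIN28B MmugDNA.33796.1.S1_s_at lies furthest right against fibroblasts, at 10.22 and 10.02, and these plotted values are not raised to the array medians.

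The spread among the stem cell arrays differed between probe sets of the same gene. Over the 8 stem cell arrays the SD of the log2 signal was 0.29 for LIN28B (MmugDNA.33796.1.S1_s_at), and 0.47 at its probe set near the array medians. The 4 IGF2BP3 probe sets ran from 0.22 to 0.41, with 0.23 at MmugDNA.15520.1.S1_s_at and the highest at MmugDNA.15520.1.S1_at. The median SD was 0.27 over 7655 probe sets with a geometric mean above 1000 on these arrays. The highest stem cell signal was 1.79 and 2.29 times the lowest at the LIN28B probe sets and 1.52 to 2.28 times at those of IGF2BP3. Within the 4 MPH1 arrays alone it was 1.38 and 1.43 times for LIN28B and 1.17 to 1.73 times for IGF2BP3.

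ICSI ESC 1, of the line MES1 at passage 12, had the lowest stem cell signal at 4 of the 6 probe sets, namely both of LIN28B and 2 of IGF2BP3. That array was the lowest at 27.9% of the 7655 bright probe sets, which do not include the dim LIN28B probe set MmunewRS.241.1.S1_at. Among PG-haESC arrays the lowest signal of LIN28B MmugDNA.33796.1.S1_s_at and of 3 of 4 IGF2BP3 probe sets was on PG-haESC 2. The other LIN28B probe set, MmunewRS.241.1.S1_at, had 233 on PG-haESC 2, with only PG-haESC 3 higher (245). PG-haESC 2 was MPH1 at passage 11 and had the highest array median (132.7). The share of all probe sets that were lowest there was not computed, so whether that count is unusual is not known. PG-haESC 2 and ICSI ESC 1 are the arrays with the highest spike-in signals. Fibroblast and feeder markers had a mean log2 signal of 10.96 on PG-haESC 2 and 12.38 on ICSI ESC 1. It was 10.78 on PG-haESC 4, 10.73 on PG-haESC 5 and 8.34 and 9.22 on the other PG-haESC arrays, and on the other ICSI ESC arrays 8.45 and 9.86. DCN, a proteoglycan of connective tissue, had 7552 on PG-haESC 2, 16850 on PG-haESC 4 and 367 to 2577 on the other PG-haESC arrays. It had 39481 on ICSI ESC 1, 182 and 1713 on the other ICSI ESC arrays, and 49727 and 48614 on fibroblast arrays. COL1A1, a collagen chain, had 1322 on PG-haESC 2 and 163.1 to 516 on the other PG-haESC arrays, 1825 on ICSI ESC 1 and 143 and 502 on the other ICSI ESC arrays, and 8122 and 9202 on fibroblast arrays. From 11 to 13 of these 13 markers were above the array median on every stem cell array. Over 16 measured differentiation markers the mean log2 signal was 8.54 on PG-haESC 2 and 7.87 on ICSI ESC 1. It was 7.19 to 7.98 on the other PG-haESC arrays, and 8.23 and 7.715 on the other ICSI ESC arrays. The part of passage, spike-in signal, feeder markers and differentiation markers in the lower LIN28B and IGF2BP3 signals was not tested.

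HMGA2, a chromatin protein of fetal cells repressed by let-7, was highest among stem cell arrays on PG-haESC 2 and ICSI ESC 1. Its signals were 3656 on PG-haESC 2 and 343 to 542 on the other PG-haESC arrays. On ICSI ESC arrays it had 2576 on ICSI ESC 1, 282 on ICSI ESC 2 and 436 on ICSI ESC 3, and on fibroblast arrays 24.3 and 9.53.

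**Figure D3:**
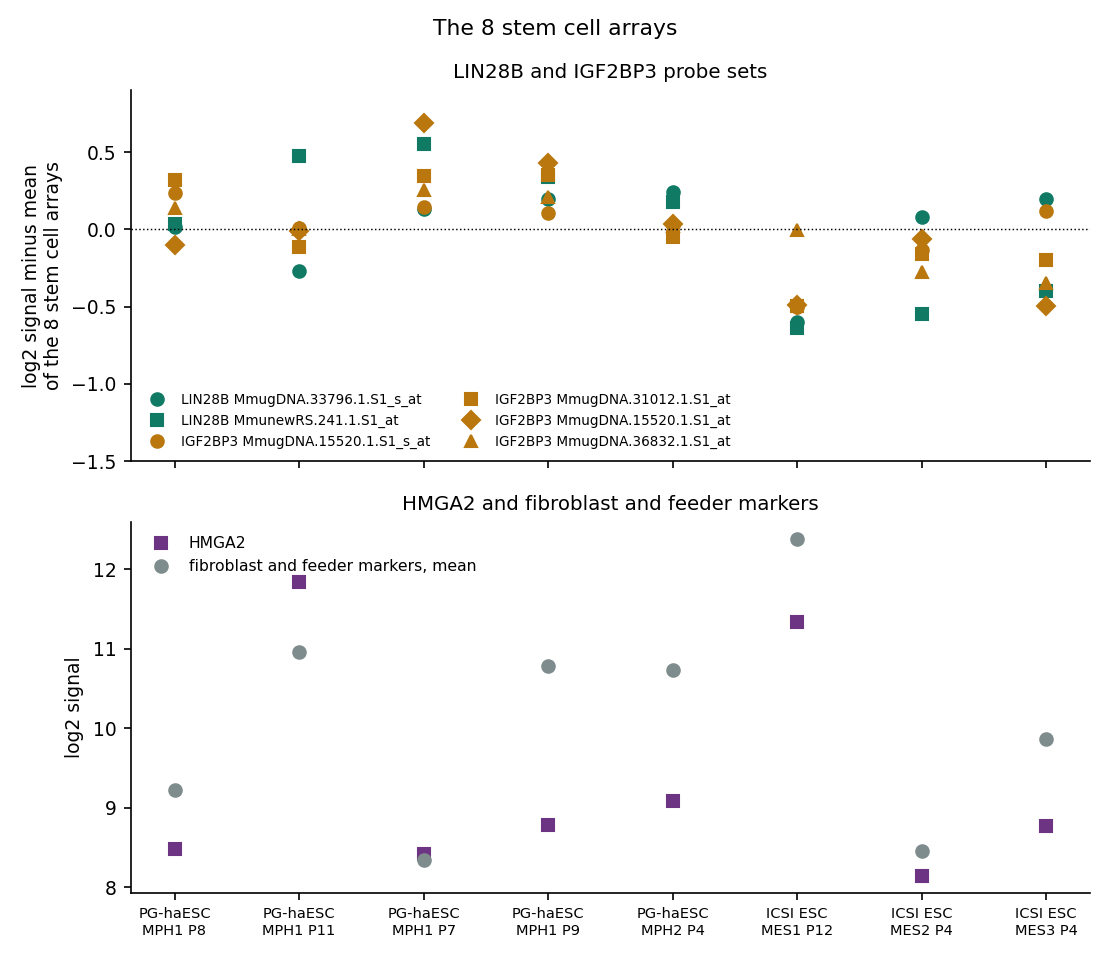
Upper panel, log2 signal of each LIN28B (green) and IGF2BP3 (orange) probe set on the 8 stem cell arrays minus its mean over them. Lower panel, log2 signal of HMGA2 (squares) and mean log2 signal of 13 fibroblast and feeder markers (circles). ICSI ESC 1 (MES1 P12) is lowest at 4 of 6 probe sets, and HMGA2 is highest on PG-haESC 2 (MPH1 P11) and ICSI ESC 1.

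Among the paralogues, IGF2BP1 was called higher in both stem cell groups than in fibroblasts and IGF2BP2 was not. Signals of different probe sets depend on their probes and do not rank the genes. IGF2BP1, itself a let-7 target, had 541.8, 542.4, 684, 610 and 757 on PG-haESC arrays 1 to 5, 340, 574 and 514 on ICSI ESC arrays 1 to 3, and 64.7 and 72.2 on fibroblast arrays at MmugDNA.24712.1.S1_at. PG-haESCs were at least 5.37-fold and ICSI ESCs at least 4.02-fold higher than fibroblasts (log2 3.23 ± 0.33 and 2.77 ± 0.33, adjusted p = 1.434e-05 and 5.173e-05). Its other probe set, MmugDNA.8547.1.S1_at, ran from 473 to 660 on PG-haESC arrays, from 275 to 519 on ICSI ESC arrays and from 27.8 to 57.3 on fibroblast arrays. Between PG-haESCs and ICSI ESCs the probe sets differed by 0.46 ± 0.27 and 0.51 ± 0.36 (adjusted p = 0.84 and 0.90), and the lowest stem cell signal of each was on ICSI ESC 1.

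IGF2BP2, the family member known to persist in adult tissues, had signals of 115, 70.6, 6.83, 119 and 84.8 on PG-haESC arrays 1 to 5, 74.7, 38.2 and 131 on ICSI ESC arrays 1 to 3, and 25.1 and 7.42 on fibroblast arrays. These values are near or below the array medians and PG-haESC 3 lay far below the other PG-haESC arrays. No comparison passed the test for IGF2BP2 (adjusted p = 0.99 for PG-haESCs against ICSI ESCs, 0.30 for PG-haESCs and 0.25 for ICSI ESCs against fibroblasts). For LIN28A no probe set was named, so it was not analysed here.

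Among the proteins that process let-7 or act with LIN28, most of those called were higher in stem cells than in fibroblasts, while TUT7 and AGO4 were lower. Of 16 measured genes, 9 rose and 2 fell in PG-haESCs against fibroblasts, where 23.0% and 17.2% of the 11676 genes tested did, and the median log2 change was 0.82 against 0.06 over all genes. Counts were also 9 and 2 in ICSI ESCs against fibroblasts, where 22.5% and 17.0% of genes were called. RAN, the GTPase that works with exportin 5 in moving precursors out of the nucleus, rose by 2.14 ± 0.24 on the log2 scale in PG-haESCs (adjusted p = 2.899e-05). XRN2, a nuclease, rose by 1.58 ± 0.17 (adjusted p = 1.905e-05), and TARBP2, a partner of DICER1, by 1.83 ± 0.23 (adjusted p = 6.814e-05). DHX9 (1.67), KHSRP (1.61), HNRNPA1 (1.30), XPO5 (1.05), PRKRA (0.84) and AGO2 (0.80) rose as well. The call of PRKRA was lost in 11 of 25 alternatives, among them the removal of any single PG-haESC or fibroblast array (0.70 to 0.90). The call of AGO2 was lost in 5, among them without either fibroblast array (0.72 without fibroblast 1 and 0.88 without fibroblast 2) and without PG-haESC 2 (0.79).

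TUT7, which uridylates let-7 precursors, fell in PG-haESCs against fibroblasts by 1.51 on the log2 scale (adjusted p = 0.00052) and in ICSI ESCs by 1.33 (adjusted p = 0.0014). Its signals were 727 to 1132 on PG-haESC arrays, 873 to 993 on ICSI ESC arrays and 2322 and 2328 on fibroblast arrays. When its probe sets were averaged, TUT7 had -0.98 in PG-haESCs (adjusted p = 0.053) and -0.85 in ICSI ESCs (adjusted p = 0.091). AGO4, an Argonaute protein, fell by 2.48 in PG-haESCs (adjusted p = 0.00022) and by 2.44 in ICSI ESCs (adjusted p = 0.00027). TUT4 had a log2 change of -0.30 in PG-haESCs against fibroblasts (adjusted p = 0.53) and DICER1 one of -0.35 (adjusted p = 0.41). None of the 16 was called between PG-haESCs and ICSI ESCs, where 0.574% of genes were. DROSHA, DGCR8, DIS3L2, TRIM71 and MSI1 were not analysed here, since no probe set carried their names.

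Genes known as let-7 targets that passed the test were mostly higher in stem cells than in fibroblasts. Of 33 measured, 17 rose and 3 fell in PG-haESCs against fibroblasts, with a median log2 change of 1.60, where 23.0% and 17.2% of all genes were called. In ICSI ESCs 16 rose and 3 fell, with a median of 1.62, where 22.5% and 17.0% of all genes were called. MYCN, a growth-promoting transcription factor, had signals of 7012 to 13818 on PG-haESC arrays, 5218 to 7173 on ICSI ESC arrays and 586 and 606 on fibroblast arrays. It rose by 4.28 ± 0.32 in PG-haESCs and by 3.44 ± 0.32 in ICSI ESCs against fibroblasts (adjusted p = 1.406e-06 and 8.409e-06). When its probe sets were averaged, MYCN had 1.41 in ICSI ESCs (adjusted p = 0.073). In PG-haESCs its call held in all 25 alternatives (2.20 at the lowest). ARID3B, a DNA-binding protein, rose by 3.30 and 3.71, HMGA1, a chromatin protein, by 3.15 and 3.39, and E2F5, a cell cycle transcription factor, by 3.34 and 3.97 in PG-haESCs and in ICSI ESCs. HMGA2 rose by 5.36 ± 1.23 and 5.48 ± 1.24 (adjusted p = 0.0049 and 0.0045), at least 5.53-fold and 5.89-fold, and both calls were lost with dim signals set to the array median (2.43 and 2.56). MYC had a log2 change of 0.28 in PG-haESCs against fibroblasts (adjusted p = 0.58). The mature let-7 microRNAs themselves were not analysed here.

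Between the stem cell groups 0 of the 33 let-7 targets were called. MYCN had a log2 difference of 0.85 ± 0.26 (PG-haESC minus ICSI ESC, adjusted p = 0.30), which passed the test without PG-haESC 2 and ICSI ESC 1 (1.07, adjusted p = 0.019). E2F5 had one of -0.63 ± 0.23 (adjusted p = 0.47), which passed without ICSI ESC 1 (-0.91, adjusted p = 0.049). HMGA2 had -0.13 ± 1.01 (adjusted p = 1.00) and MYC -0.37 ± 0.28 (adjusted p = 0.93). The sign of the HMGA2 difference turned without ICSI ESC 1 (0.85), PG-haESC 1 (0.056) or PG-haESC 3 (0.068).

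Of 16 measured transcripts reported to be bound by IGF2BP proteins, 6 rose and 2 fell in PG-haESCs against fibroblasts, where 23.0% and 17.2% of all genes did. In ICSI ESCs 6 rose and 1 fell, where 22.5% and 17.0% of all genes did, and the median log2 changes were 0.33 in PG-haESCs and 0.38 in ICSI ESCs. The counts of those that fell ranged from 0 to 3 over the alternatives. MKI67, a protein of dividing cells, rose by 2.38 ± 0.24 in PG-haESCs and 2.69 ± 0.24 in ICSI ESCs (adjusted p = 1.486e-05 and 6.614e-06). HNRNPM, a splicing factor, rose by 1.90 in PG-haESCs, PDPN, a membrane glycoprotein, by 2.07 and IGF1R, the IGF receptor, by 1.43. When the probe sets of each gene were averaged, HNRNPM had 0.40 (adjusted p = 0.31) and IGF1R 0.83 (adjusted p = 0.064).

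IGF2, the growth factor for whose mRNA the family is named, was near the array medians, with 36.2 to 226 on PG-haESC arrays, 69.7 to 102 on ICSI ESC arrays and 250 and 83.2 on fibroblast arrays. H19, an imprinted RNA that IGF2BP proteins bind, ranged from 645 to 14625 on PG-haESC arrays, the highest on PG-haESC 5 of the line MPH2, against 429 to 1862 on ICSI ESC arrays and 3623 and 3510 on fibroblast arrays. Neither passed the test in any comparison, with log2 differences between PG-haESCs and ICSI ESCs of -0.14 ± 0.76 for IGF2 and 1.89 ± 0.91 for H19 (adjusted p = 0.99 and 0.72). HMGA2, MYC and IGF1R are on the let-7 target list as well.

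Of 13 measured writers, erasers and readers of m6A, 4 rose and 0 fell in PG-haESCs against fibroblasts, where 23.0% and 17.2% of all genes did. In ICSI ESCs 3 rose and 1 fell, where 22.5% and 17.0% of all genes did, so the counts of those that rose were near the shares over all genes. HNRNPC, an RNA-binding protein that reads m6A indirectly, rose by 3.03 ± 0.18 in PG-haESCs and 3.16 ± 0.18 in ICSI ESCs (adjusted p = 2.263e-07 and 1.932e-07). METTL3, the catalytic writer, rose by 1.29 ± 0.26 in PG-haESCs (adjusted p = 0.0020), FMR1, a reader, by 0.80 and ZC3H13, a writer subunit, by 0.74. In ICSI ESCs YTHDC2, a reader with helicase activity, fell by 1.57 (adjusted p = 0.0063). With arrays averaged per line only 1 of the 13 rose in PG-haESCs.

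Other RNA-binding proteins of stem and germ cells gave 14 higher and 6 lower of 27 in PG-haESCs against fibroblasts, beside 23.0% and 17.2% of all genes. In ICSI ESCs 11 were higher and 5 lower, beside 22.5% and 17.0%, and the counts of lower ones were near those shares. RBPMS2 (4.51 ± 0.24, adjusted p = 1.154e-07), RBPMS (3.03 ± 0.20), the splicing regulator PTBP2 (3.03 ± 0.22) and SYNCRIP (2.27 ± 0.21), a protein of IGF2BP1 complexes, rose in PG-haESCs. RBPMS2 rose by 4.63 ± 0.24 in ICSI ESCs.

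Other genes called oncofetal were higher in 9 and lower in 0 of 14 in each stem cell group against fibroblasts, where 23.0% of all genes were higher in PG-haESCs and 22.5% in ICSI ESCs. SALL4, a zinc finger factor of embryonic cells, rose by 5.43 ± 0.36 in PG-haESCs and 5.30 ± 0.36 in ICSI ESCs (adjusted p = 5.327e-07 and 7.61e-07). SOX11 (a geometric mean of 3702 in PG-haESCs, against 30.9 in fibroblasts), PROM1 (log2 3.92) and GPC3, a glypican of the cell surface (log2 2.54), rose in PG-haESCs. GPC3 was also the one gene of these lists called between the stem cell groups. Its signals were 1404 to 1792 on PG-haESC arrays, 480 to 789 on ICSI ESC arrays and 292 and 241 on fibroblast arrays, and PG-haESCs were higher than ICSI ESCs by 1.34 ± 0.22 (adjusted p = 0.025). That call was lost without PG-haESC 1 (1.30), PG-haESC 2 (1.36), PG-haESC 3 (1.31), ICSI ESC 2 (1.33) or ICSI ESC 3 (1.17). It was also lost with arrays averaged per line (1.31, adjusted p = 0.40), with centring on medians (1.39, adjusted p = 0.34) and without a variance trend (1.34, adjusted p = 0.15), and the mean over the GPC3 probe sets gave -0.13 (adjusted p = 0.99).

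**Figure D4:**
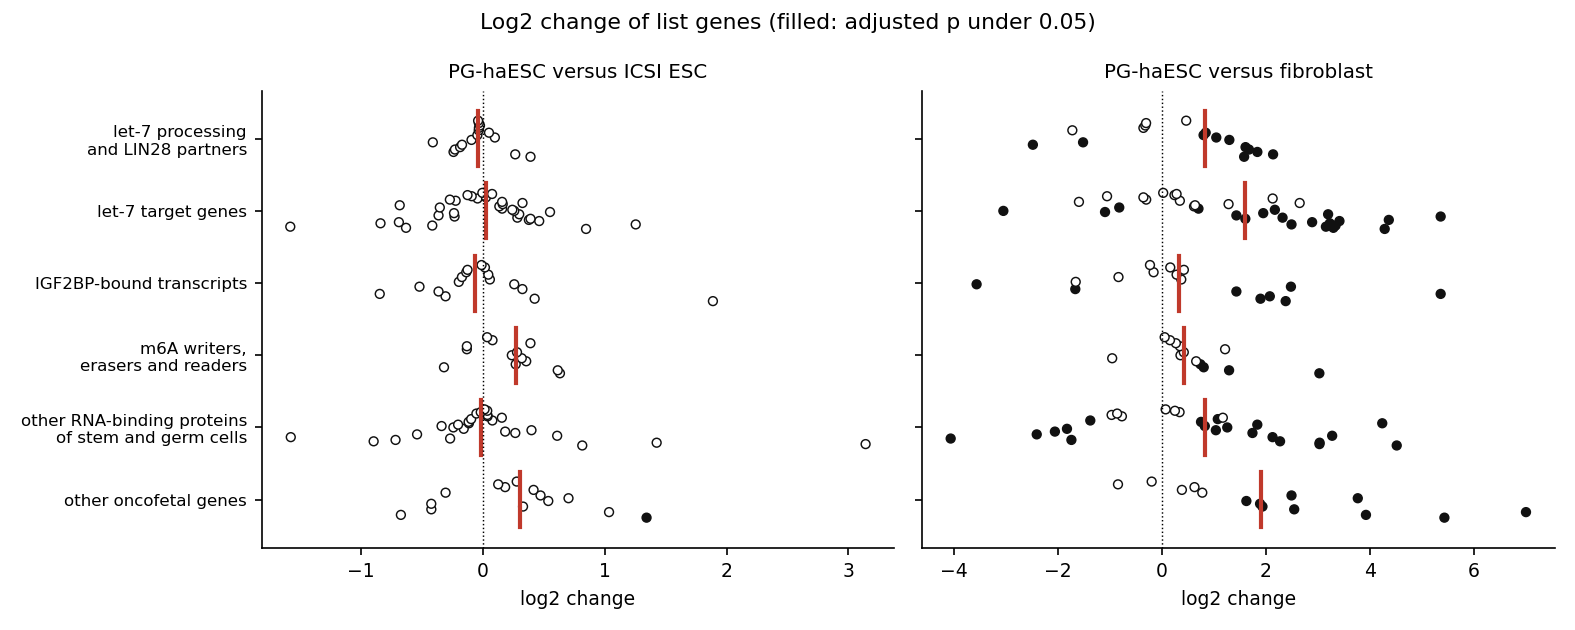
Log2 change (x axis) of each measured gene of 6 lists for PG-haESCs against ICSI ESCs and against fibroblasts. Filled points have an adjusted p under 0.05 and red lines are list medians. Between the stem cell groups only GPC3, among the other oncofetal genes, is filled, while against fibroblasts filled points lie on both sides of 0 in 4 lists.

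The genes whose pattern over the 10 arrays lay closest to each member were found across all measured genes. Likeness was the root mean square difference of log2 signals after each probe set's own mean was subtracted, over 11675 genes. For LIN28B the 5 closest genes were POU5F1 (0.66) and SOX2 (0.95), core pluripotency factors, then ZIC2 (1.15), ARHGAP36 (1.24) and DPPA4 (1.34), where the median over all genes was 4.07. For IGF2BP3 they were DDX10 (0.27), an RNA helicase, DPPA4 (0.29), a stem cell chromatin factor, SLC7A3 (0.34), an amino acid transporter, TMEFF1 (0.35) and CRMP1 (0.43), with a median of 2.59. IGF2BP3 itself ranked 7 for LIN28B and LIN28B ranked 344 for IGF2BP3, at a difference of 1.501 between them. These values are a description and take in the fibroblast arrays, where LIN28B was below the array median.

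POU5F1 and SOX2 can be read beside LIN28B array by array. POU5F1 ran from 17260 to 33612 on PG-haESC arrays, from 20723 to 27189 on ICSI ESC arrays, and was 40.6 and 80.0 on fibroblast arrays. PG-haESCs and ICSI ESCs were at least 227-fold and 207-fold higher than fibroblasts. SOX2 ran from 11468 to 17023 on PG-haESC arrays, from 9051 to 11208 on ICSI ESC arrays, and was 43.8 and 66.3 on fibroblast arrays. DPPA4, near both members, had 2998 to 4403 on PG-haESC arrays, 2717 to 4551 on ICSI ESC arrays and 20.3 and 49.3 on fibroblast arrays. Among the stem cell arrays, DPPA4 and SOX2 were lowest on ICSI ESC 1 (2717 and 9051), as LIN28B was. POU5F1 and ARHGAP36 were lowest on PG-haESC 5 (17260 and 824), where LIN28B at MmugDNA.33796.1.S1_s_at was highest (9325). ZIC2 was highest on ICSI ESC 1 (15735), where LIN28B was lowest.

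Genes next to the members on the chromosome were looked up as well. The order of genes was taken by symbol from the RefSeq table of the current cynomolgus assembly. Beside LIN28B lie POPDC1, which was not measured, and HACE1, a ubiquitin ligase. HACE1 had a log2 change of 0.16 ± 0.35 in PG-haESCs against fibroblasts (adjusted p = 0.78), where 23.0% of all genes tested rose. Beside IGF2BP3 lie TRA2A, a splicing factor, which rose by 0.97 ± 0.24 (adjusted p = 0.0082), and MALSU1, a mitochondrial ribosome factor, which rose by 1.81 ± 0.19 (adjusted p = 1.652e-05). Averaged over its probe sets, MALSU1 had 0.38 (adjusted p = 0.31).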

How the data were processed

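The deposited values are linear signal intensity, made by the authors with MAS5 per the submitters' processing notes, with no version given in the sources used here. RNA extraction used TRIZOL and labelling used a GeneChip 3' IVT Express kit, per the labels' protocols. All arrays had the same mean after removal of their highest and lowest 2% of probe sets, so they had been scaled to a common level. No detection calls were given. Of 52865 probe sets, 158 controls were left out. The annotation supplied gave 1 symbol to 24956 probe sets, several to 361 and none to 27390.

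Group means were fitted to log2 signal over the 10 arrays together (limma 3.58.1, R 4.3.3), with the line as a random block (correlation 0.29), a variance trend and two-sided tests. Benjamini-Hochberg adjustment ran over the 34139 probe sets tested, with calls at an adjusted p under 0.05. By the titles MPH1 is 1 line, although its arrays carry the codes M1 and M2. If no signal of the dimmer group exceeded its array's median, the fold was computed with those signals raised to that median and is given as at least. Each gene was read from the probe set with its highest average log2 signal.

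The members and the gene lists were chosen with earlier results of these data known. The text names all probe sets of LIN28B and IGF2BP3, the called members of their family and of the let-7 processing list, up to 4 called members with the smallest p of each other list, the genes IGF2, H19, HMGA2, MYC, MYCN, IGF1R, POU5F1, SOX2, COL1A1 and DCN, and the 5 genes most like each member. KRT1, TUT4, DICER1 and the chromosomal neighbours were added after their values were seen. In a simulation of 34139 probe sets with 200 altered, 20% of 2-fold and 66% of 4-fold changes between PG-haESCs and ICSI ESCs were recovered, with 8 false calls. Plots were made in matplotlib 3.10.9 (Python 3.11.15).

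As alternatives, arrays were treated as independent, blocked by code or averaged per line; signals were offset by 32, quantile normalized or centred on medians; the filter was dropped or raised to the 75th percentile; the variance was fitted without trend or robustly; passage was added; probe sets of a gene were averaged; only the compared groups were fitted; and each array was left out in turn. Chosen after seeing the data were dim signals raised to their array's median, and PG-haESC 2 and ICSI ESC 1 left out.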

Additional observations from a re-analysis of the deposited data

Results flagged for a closer look

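In the PG-haESC group, 6 of 52 probe sets checked had 1 array set apart from the other 4. The gap took up more of the group's range of log2 signals than Dixon's 95% limit allows. Chance gives about 1 in 20 where all arrays are alike, while here PG-haESC 5 is the only array of MPH2. None of the 6 was a LIN28B or IGF2BP3 probe set. IGF2BP2 had a signal of 6.83 on PG-haESC 3, with 70.6 to 119 on the others. HMGA2 had 3656 on PG-haESC 2, with 343 to 542 on the others, and KRT1 had 278 on the same array, with 116 to 149 on the others. IGF1R had 427 on PG-haESC 5, with 516 to 545 on the others, and HMGA1 had 5873 there, with 7793 to 8508 on the others. TUT7 had 1132 on PG-haESC 4, with 727 to 821 on the others.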

How the results depend on the processing

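Over 25 alternatives the 6 LIN28B and IGF2BP3 probe sets gave 145 values between PG-haESCs and ICSI ESCs, of which 0 were called (adjusted p 0.26 to 1.00) and 1 reversed, LIN28B MmugDNA.33796.1.S1_s_at without ICSI ESC 1 (-0.060, with 0.35 at the other end, without ICSI ESC 3). PG-haESCs were called higher than fibroblasts in 144 of 145 values and ICSI ESCs in 128 of 145. No paired analysis was possible because replicate numbers follow accession order or array names and pair no samples across groups. The 154 probe sets called between PG-haESCs and ICSI ESCs became 475 with arrays as independent samples, 256 with the code as block, 9 with arrays averaged per line, 14 with centring on medians, 102 with the 75th percentile filter, 13 without a variance trend, 287 with passage as a covariate, 84 with only the groups compared, 441 without PG-haESC 2 and ICSI ESC 1, and 8 to 395 with single arrays left out (8 without ICSI ESC 3, 395 without ICSI ESC 1, 40, 41 and 42 without PG-haESC 3, ICSI ESC 2 and PG-haESC 1, 81 without either fibroblast array, 85 without PG-haESC 4 and 101 without PG-haESC 2). Between PG-haESCs and fibroblasts the 11275 became 6294 with arrays averaged per line. Centring moved the median of all genes by 0.33 and 0.28 in the PG-haESC and ICSI ESC comparisons with fibroblasts, quantile normalization by 0.18 and 0.17. With centring the share of called probe sets that were higher was 63.7% and 61.6%, against 51.4% and 50.5%, and 21.4% against 81.2% between PG-haESCs and ICSI ESCs.

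Reversed values between PG-haESCs and ICSI ESCs, none of them called, were POU5F1 with arrays averaged per line (-0.091) and with single arrays left out (range -0.048 to 0.29), GPC3 with the mean of all probe sets (-0.13), HMGA2 with single arrays left out (range -0.76 to 0.85) and without PG-haESC 2 and ICSI ESC 1 (0.28), IGF2 with single arrays left out (range -0.44 to 0.10) and with dim signals set to the median (0.075), and IGF2BP2 with single arrays left out (range -0.74 to 0.38). Against fibroblasts H19 reversed with arrays averaged per line (0.38), centring (0.012), the mean of all probe sets (0.28) and single arrays left out (range -1.28 to 0.17), HACE1 with passage (-0.49) and single arrays left out (range -0.012 to 0.32), and IGF2BP2 with dim signals set to the median (-0.20 in PG-haESCs and -0.13 in ICSI ESCs). Other calls of single genes against fibroblasts were lost with arrays averaged per line (XPO5, IGF1R, METTL3, FMR1, ZC3H13 and TRA2A), with passage (XPO5, ZC3H13 and TRA2A), with the mean of all probe sets (KHSRP, GPC3 and TUT7, and MYCN and YTHDC2 in ICSI ESCs) and with centring (TUT7 and YTHDC2 in ICSI ESCs). Except where an alternative uses fewer arrays or raises dim signals, the cause was not tested. The low signals of LIN28B on the fibroblast arrays bound its fold only from below.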
